A study of Homo sapiens with 18 samples.

Results

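Caveolae are small flask-shaped pits of the plasma membrane. Their coat is built from caveolins, which are inserted in the membrane, and cavins, which assemble on its inner face, while the ATPase *EHD2* sits at the neck of the pit. Caveolae flatten when a membrane is stretched and are therefore studied as a reserve of membrane in cells that change their adhesion or shape. They are known to be abundant in endothelial cells, adipocytes and muscle.

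The genes described here are *CAV1*, *CAV2*, *CAVIN1*, *CAVIN2*, *CAVIN3* and *EHD2*, chosen by symbol because their products form or stabilize this coat. These 6 genes were looked for among the 21944 genes of the deposited table, where 5 of them were found, each with a row at 3, 6 and 24 h. The level of *CAVIN2* was not analysed here.

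RNA was sequenced from pancreatic progenitors made from human embryonic stem cells, which were detached with accutase at day 19 of differentiation and reseeded on fibronectin (FN) or on laminin-411 (LN411). There were 6 groups, namely FN at 3 h, FN at 6 h, FN at 24 h, LN411 at 3 h, LN411 at 6 h and LN411 at 24 h, with 3 samples in each and 18 in all. The growth protocol names an NGN3-GFP reporter line derived from SA121, and NGN3-GFP is also the line given in the study's own description of this RNA sequencing, whereas the source and cell line labels name HUES4. The only level analysed here is the authors' mean normalized count, 1 value per gene averaged over all 18 samples, so that FN and LN411 cells and all times are pooled in every number below. No comparison of LN411 with FN is made, no spread between samples accompanies a value, and differences between genes were not tested. The depth of single samples is unknown.

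The caveolin pair was unequal in these cells. *CAV2* (ENSG00000105971), which needs caveolin-1 to reach the cell surface in many cell types, had an authors' mean normalized count of 844.1. *CAV1* (ENSG00000105974), the caveolin that drives formation of caveolae outside striated muscle, had an authors' mean normalized count of 84.4. As longer transcripts give more reads, genes are compared with each other per kilobase (kb) of their longest annotated transcript. On this scale *CAV2* had a level of 286 per kb and *CAV1* a level of 31.8 per kb, a ratio of 8.98. With the merged exons of each gene as its length the ratio was 5.88, and with the coding part 11.0. The whole count of a gene was divided in each case, so that values per kb of coding sequence also hold reads from outside it. *CAV2* was thus the higher of the pair under all 3 lengths.

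The cavins lay between the caveolins or close to *CAV2*. *CAVIN1* (ENSG00000177469), the cavin required for caveolae in all tissues, had an authors' mean normalized count of 687.5, or a level of 193 per kb. *CAVIN3* (ENSG00000170955), which joins the coat through cavin-1, had an authors' mean normalized count of 160.6, or 156 per kb. The ratio of *CAVIN1* to *CAVIN3* was 1.23 per kb of the longest transcript, 1.87 per kb of merged exons and 3.22 per kb of coding sequence. Per kb of the longest transcript, *CAVIN1* was 6.05 times and *CAVIN3* 4.91 times the level of *CAV1*. Per kb of coding sequence these ratios were 3.72 and 1.16, so that the distance between these genes depends on the length chosen.

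*EHD2* (ENSG00000024422) had the lowest level of the 5 genes, with an authors' mean normalized count of 33.9 and 9.66 per kb. *CAV1* was 3.29 times as high per kb of the longest transcript and 7.60 times per kb of coding sequence. Per kb of merged exons *CAV1* was 2.48 times as high as *EHD2*. The order from high to low was *CAV2*, *CAVIN1*, *CAVIN3*, *CAV1* and *EHD2*, and it was the same per kb of coding sequence. Per kb of merged exons *CAVIN1* at 193 stood above *CAV2* at 128, while *CAVIN3*, *CAV1* and *EHD2* kept their places.

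**Figure D1:**
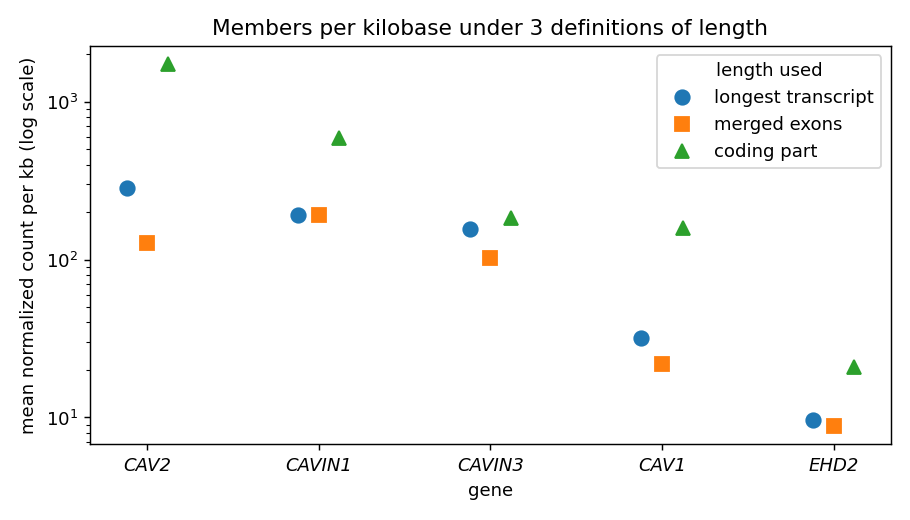
Mean normalized count per kb (vertical axis, log scale) of the 5 genes, each with its longest transcript (circles), its merged exons (squares) or its coding part (triangles) as the length. *EHD2* is lowest and *CAV1* next to lowest with every length, while *CAV2* and *CAVIN1* change places when merged exons are used.

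Set against all genes of the table, the members were not among the abundant transcripts. The median gene had 99.6 per kb, with a length available for 21861 genes. *CAV2*, *CAVIN1* and *CAVIN3* were above this median, and 64.6%, 58.7% and 55.8% of genes, respectively, had a lower level per kb. *CAV1* and *EHD2* were below it, with 35.5% and 17.5% of genes lower. Among protein-coding genes alone, 51.1% had a lower level per kb than *CAV2*, 43.3% than *CAVIN1* and 39.7% than *CAVIN3*, which placed *CAVIN1* and *CAVIN3* below the median and *CAV2* close to it. Together the 5 genes held 0.00340% of the summed mean normalized count of all genes.

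**Figure D2:**
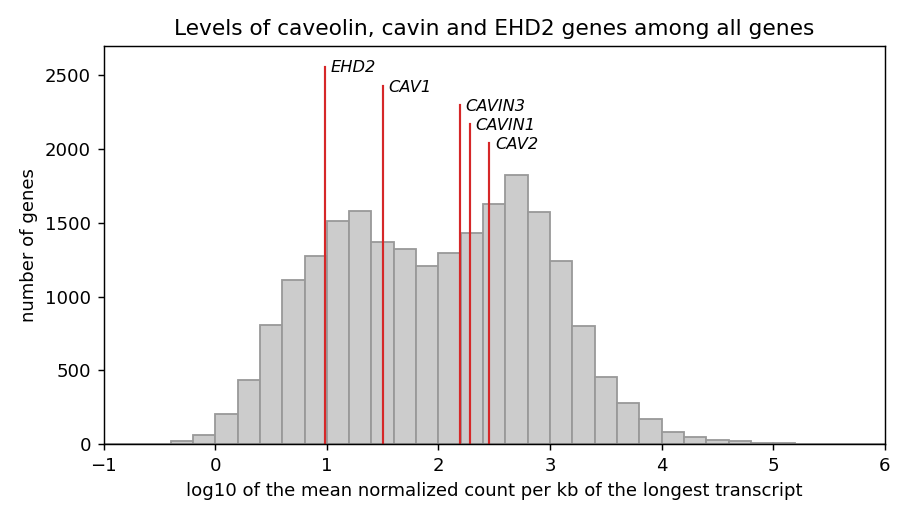
Number of genes (vertical axis) by the log10 of the mean normalized count per kb of the longest transcript (horizontal axis), with red lines at the 5 members. *EHD2* at 9.66 per kb and *CAV1* at 31.8 per kb fall in the lower part of the distribution, and *CAVIN3*, *CAVIN1* and *CAV2* lie between 156 and 286 per kb.

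Both caveolin genes lie on the plus strand of chromosome 7 of GRCh38 with no annotated gene wholly between them. *CAV2* spans chr7:116287380-116508541 and *CAV1* chr7:116524994-116561179, a gap of 16452 bases. As these neighbours differed in level, the 250 bases before the first start that RefSeq lists for each (GRCh38.p14, plus strand) are shown with the GC box, GGGCGG on either strand, in capitals. RefSeq lists 2 starts for *CAV2* and 3 for *CAV1*, and the span of *CAV2* given above, from GENCODE, begins further upstream than both of its RefSeq starts, so that its window lies inside this span. The first window is chr7:116499488-116499737 and the second chr7:116524759-116525008.
CAV2: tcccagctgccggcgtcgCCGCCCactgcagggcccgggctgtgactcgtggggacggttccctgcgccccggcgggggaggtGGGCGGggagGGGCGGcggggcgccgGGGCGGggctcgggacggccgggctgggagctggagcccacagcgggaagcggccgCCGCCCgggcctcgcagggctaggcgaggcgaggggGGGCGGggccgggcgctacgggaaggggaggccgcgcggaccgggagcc
CAV1: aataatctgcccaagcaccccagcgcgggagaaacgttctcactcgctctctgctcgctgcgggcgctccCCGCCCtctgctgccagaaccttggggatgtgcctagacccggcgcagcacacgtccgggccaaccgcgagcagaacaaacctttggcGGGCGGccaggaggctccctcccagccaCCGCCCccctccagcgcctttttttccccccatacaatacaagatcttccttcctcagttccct

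The *CAV2* window held 6 GC boxes and 35 CpG dinucleotides and was 83.2% G or C, a content that 99.0% of all windows fell short of. The *CAV1* window held 3 GC boxes and 18 CpG dinucleotides and was 63.6% G or C, against a median of 58.0% over the 35116 windows of the RefSeq table. A GC box was found in 42.6% of all windows. The second start of *CAV2* had 3 GC boxes, 27 CpG dinucleotides and 70.0% G or C in its window. The third start of *CAV1* had 2 GC boxes, 29 CpG dinucleotides and 73.2% G or C, so that the order of the genes in G or C content and CpG number depends on the starts compared. TATAAA, the core of the TATA box, was in neither printed window and in 10.7% of all windows, counted on both strands. GGAATG, a motif of the TEAD partners of YAP, was also in neither and in 11.9% of all windows. *EHD2* has 1 listed start, whose window held 1 GC box and was 69.6% G or C. *CAVIN2*, whose level was not analysed here, also has 1 listed start, and its window held no GC box, 4 CpG dinucleotides and 48.0% G or C. Of the member windows analysed it was the only one with GGAATG, at 1 place. Windows of *CAVIN1* and *CAVIN3* were not analysed here. These counts describe letters in the windows, and their part in the levels was not tested.

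The other members are scattered over the genome. *CAVIN1* lies on the minus strand at chr17:42402449-42423256, *CAVIN3* on the minus strand at chr11:6318946-6320532 and *EHD2* on the plus strand at chr19:47713422-47743134. All 5 genes are annotated as protein coding. The exons of *CAVIN3* share 571 of their 1557 bases, or 36.7%, with a long non-coding RNA on the opposite strand, which had an authors' mean normalized count of 14.7. The library kit that the study names does not mark the strand, so that reads from the shared bases cannot be told apart, and this leaves the level of *CAVIN3* uncertain. No exon of *CAV1*, *CAV2*, *CAVIN1* or *EHD2* overlaps an exon of another annotated gene.

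The muscle relatives of the members were also looked at. *CAV3*, the caveolin of striated muscle, had a row at 3 h and no row at the other times analysed here, with an authors' mean normalized count of 5.43. Its level was 3.82 per kb, so that *CAV1* was 8.34 times and *CAV2* 74.8 times as high. Per kb of coding sequence these ratios were 13.2 and 144.8, and per kb of merged exons 7.82 and 46.0. Only 2.17% of genes had a lower mean normalized count than *CAV3*, so that ratios to it rest on a value near the floor. *CAVIN4*, known as the cavin of heart and skeletal muscle, had an authors' mean normalized count of 705.0, or 228 per kb. This level was 1.18 times that of *CAVIN1* and 7.15 times that of *CAV1*. With the coding part as the length these ratios were 1.10 and 4.08, and with merged exons 1.18 and 10.4. *CAVIN4* (chr9:100578079-100588389) begins 442 bases downstream of *TMEFF1* on the same strand, a gene with an authors' mean normalized count of 653.5. The part of reads from *TMEFF1* in the value of *CAVIN4* was not tested.

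A list of 10 genes that act with caveolae and elsewhere in the cell, including *CAV3* and *CAVIN4*, had a median of 412 per kb, against 156 per kb for the 5 members. Of these genes 7 were above *CAV2*, the highest member, per kb of the longest transcript, but only 4 per kb of coding sequence. With merged exons, 8 were above *CAVIN1*, then the highest member. *PACSIN2*, which bends membrane at caveolae and endosomes, had 2618 per kb, 82.2 times the level of *CAV1*, or 36.9 times per kb of coding sequence. *PACSIN3*, a relative found mostly in muscle, had 599 per kb and *PACSIN1*, its neuronal relative, 15.8 per kb. *DNM2*, the dynamin that cuts vesicles from the membrane, had 1348 per kb. *ROR1*, a receptor that can bind caveolar proteins, had 348 per kb.

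The EHD family differed widely among its 4 genes. *EHD2*, the member at the caveolar neck, had 9.66 per kb, whereas *EHD1*, which acts in endosome recycling, had 1460 per kb. *EHD3* and *EHD4*, which also act at endosomes, had 323 and 476 per kb. The ratios to *EHD2* were 151 for *EHD1*, 33.4 for *EHD3* and 49.2 for *EHD4*. Per kb of coding sequence they were 190.2, 46.6 and 90.2, and per kb of merged exons 104, 36.6 and 43.9. The exons of *EHD4* overlap those of a long non-coding RNA on the opposite strand over 45.7% of their bases. As for *CAVIN3*, this leaves the level of *EHD4* uncertain, and with it the ratios of *EHD4* to *EHD2*.

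The 9 genes listed for other membrane domains and coats were higher than every member under all 3 lengths. They ran from 859 to 4078 per kb of the longest transcript, while the highest member, *CAV2*, had 286 per kb. Per kb of coding sequence the lowest of them, *AP2A1*, stood at 1756 and *CAV2* at 1737, which is a small gap. The coding part is 486 of the 2953 bases of the longest *CAV2* transcript and 2931 of 3423 for *AP2A1*. Per kb of merged exons *AP2A1* had 591 and *CAV2* 128. *FLOT1* and *FLOT2*, the flotillins of lipid rafts, had 1734 and 2855 per kb. For clathrin, the coat of another endocytic route, the heavy chain *CLTC* had 3783 per kb, 119 times *CAV1* and 13.2 times *CAV2*. Per kb of coding sequence *CLTC* was 39.7 times *CAV1* and 3.61 times *CAV2*, and per kb of merged exons 120.1 and 20.4 times. The clathrin light chains *CLTA* and *CLTB* had 3382 and 859 per kb. The AP-2 adaptor subunits *AP2A1*, *AP2B1*, *AP2M1* and *AP2S1*, which link clathrin to cargo, had 1504, 3235, 2760 and 4078 per kb.

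**Figure D3:**
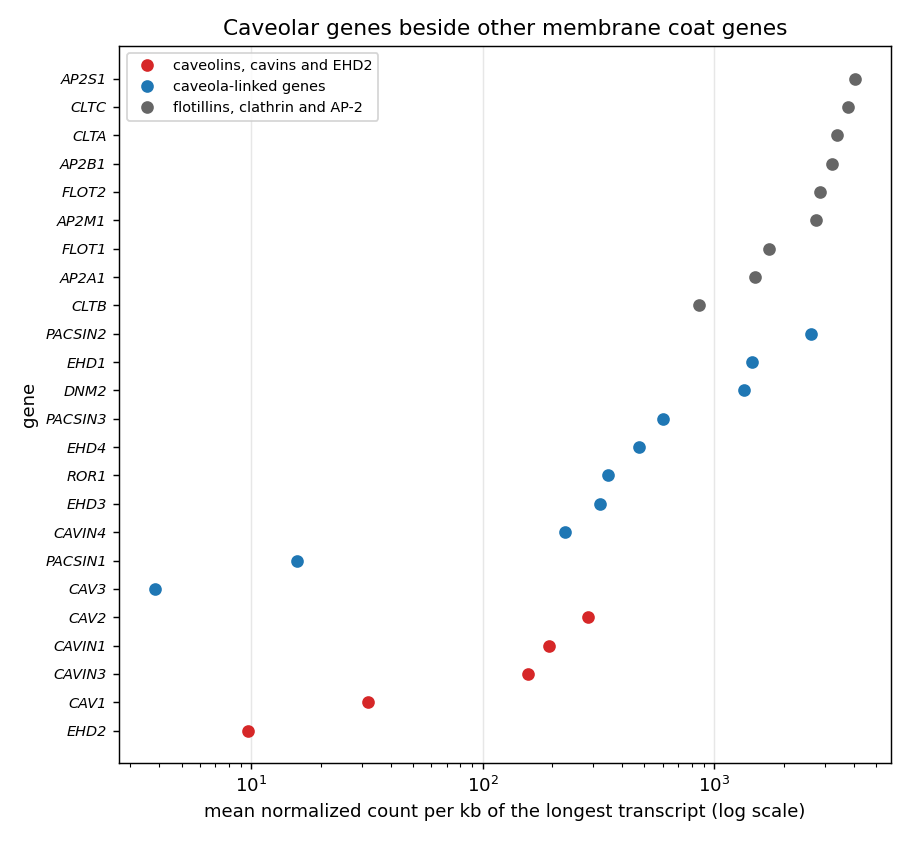
Mean normalized count per kb of the longest transcript (horizontal axis, log scale) for the members (red), caveola-linked genes (blue) and flotillin, clathrin and AP-2 genes (grey), 1 point per gene. All grey points lie at 859 per kb or more, above *CAV2* at 286 per kb, and *EHD2* is the lowest red point.

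The labelled cell type was checked with markers. All 11 pancreatic progenitor markers had rows, led by *GP2* with 40743 per kb and *SOX9* with 5259 per kb, and the lowest was 8.10 per kb. The 5 epithelial markers ran from 10686 to 58259 per kb, with *KRT8* and *EPCAM* at 58259 and 44988 per kb.

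Markers of cell types rich in caveolae were mostly low. Of 8 endothelial markers 7 were analysed, from 1.24 to 42.9 per kb, with *TIE1* and *PECAM1* at 42.9 and 11.0 per kb. Of 5 adipocyte markers 3 were analysed, and their highest, *PLIN1*, had 7.60 per kb, with *ADIPOQ* at 1.35 per kb. Of 7 muscle markers 4 were analysed, from 2.88 to 329 per kb with a median of 39.2, led by *CNN1* at 329 and *ACTA1* at 69.0 per kb. *CNN1* was thus above *CAV2*, the highest member, at 286 per kb. Mesenchymal markers reached higher levels, with *COL1A2* at 7527 and *COL1A1* at 692 per kb and a median of 87.9 per kb over the 7 analysed of 8. Of 5 pluripotency markers 3 were analysed, from 123 to 2599 per kb, with *LIN28A* and *ZFP42* at 2599 and 213 per kb. For *POU5F1* and *NANOG*, the remaining pluripotency markers, no row was available here. The part of other cell types in the levels of the members was not tested, and in bulk RNA few cells with much of a transcript and many cells with little of it cannot be told apart.

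**Figure D4:**
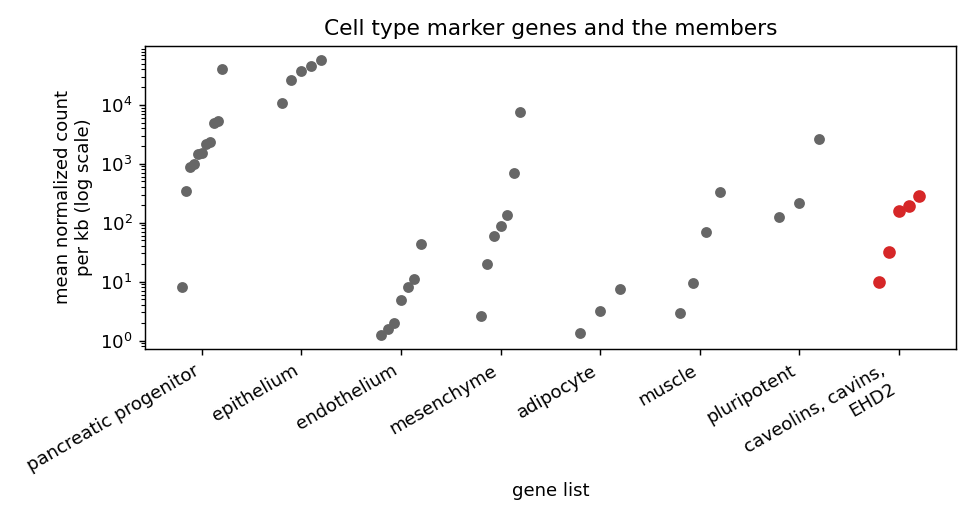
Mean normalized count per kb of the longest transcript (vertical axis, log scale) for each marker analysed (grey) and for the 5 members (red), 1 point per gene. Every epithelial marker lies above every member, and endothelial and adipocyte markers stay at or below 42.9 per kb.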

How the data were processed

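RNA sequencing covered 18 samples in 6 groups. Reads were aligned by the authors with STAR 2.7.2d (version from the submitters' processing notes) to GRCh38 with GENCODE 32 and counted per gene. The value used here is a signal, the mean normalized count, for which the authors scaled counts by size factors in DESeq2 1.34.0 and took 1 mean over the 18 samples. It was the same at the 3 times within a relative gap of 4.89e-07. The deposited table also holds the authors' own comparisons of LN411 with FN (log2 fold changes, standard errors, statistics and p-values), which were not used. Without counts for each sample, the planned count model for LN411 against FN was not run, and no test was made.

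The members and gene lists were chosen with earlier results of these data known. Named are the 6 members, the genes of both coat lists and, per marker list, the 2 genes with the highest mean normalized count. The pluripotency markers without a row are named as well. Lengths and positions came from GENCODE 44 on GRCh38, matched by Ensembl identifier for 99.6% of genes. Percentiles are shares of genes with a lower value. Promoter windows came from the RefSeq table, which matched 4 of the 6 members. Alternatives were other lengths and other backgrounds. Python 3.11.15, numpy 2.4.6, pandas 2.3.3 and matplotlib 3.10.9 were used. The calculations of percentiles, merged exon lengths and motif counts were tested on made-up data with known answers, and the other calculations were not.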

Additional observations from a re-analysis of the deposited data

How the results depend on the processing

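The share of all genes with a lower mean normalized count, without division by length, was 61.2% for *CAV2*, 58.6% for *CAVIN1*, 44.8% for *CAVIN3*, 38.7% for *CAV1* and 29.0% for *EHD2*. Among protein-coding genes only, these shares became 45.3%, 41.8%, 25.2%, 19.7% and 12.9%, each over 10 points lower, so that *CAV2* and *CAVIN1* passed from above to below the median. Also without division by length, the shares among genes listed at all 3 times were 28.0% for *CAV1* and 16.9% for *EHD2*, and those of the other 3 genes moved by under 10 points. A minimum mean normalized count of 10 moved none of these 5 shares by over 10 points. Per kb of the longest transcript, a background of protein-coding genes, chosen after seeing the data, gave 51.1%, 43.3%, 39.7% and 21.7% for *CAV2*, *CAVIN1*, *CAVIN3* and *CAV1*, each over 10 points lower, and moved *EHD2* by less.

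With merged exons as the length, the level was 128 per kb for *CAV2* and 103 per kb for *CAVIN3*, changes of over 1.5 times, and the other 3 genes moved less. With the coding part it was 1737 per kb for *CAV2*, 588 for *CAVIN1*, 158 for *CAV1* and 20.8 for *EHD2*, while *CAVIN3* moved less. No paired analysis was possible because the value used is pooled over all samples. For the same reason the planned count tools, filters and fits without single replicates were not run, and the planned protein alignments were not run, as no protein sequences were used here. Without depths or values per sample, counting error and spread between replicates could not be given.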
